A study of Mus musculus with 3 samples.

Results

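The genes described here encode the enzymes of polyamine synthesis and turnover and the antizyme system that controls them: Odc1, Amd1, Srm and Sms for synthesis, Oaz1, Oaz2 and Azin1 for control, and Sat1 and Smox for turnover. These 9 genes were found by GENCODE M21 symbol among the 55450 mouse genes of the deposited gene tables. They were chosen by function with the measured TPM, counts and transcript shares of these libraries in view, so those values are given as a description. Polyadenylated RNA was sequenced from effector memory CD4+ T cells with an alpha-beta receptor, which are antigen-experienced helper cells, taken as primary cells from 1 male C57BL/6J mouse aged 7 months. The 3 libraries are technical replicates of that 1 biological sample, form 1 group and differ in no genotype, treatment or time. Every SD below is over these 3 libraries and measures technical spread within 1 mouse. The sorting of the cells is not given in the sources used here.

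Polyamines are small positively charged molecules that bind RNA and DNA and are needed for translation and for T cell growth after activation. Ornithine decarboxylase, encoded by Odc1, makes putrescine, and the synthases Srm and Sms extend it to spermidine and spermine with aminopropyl groups from decarboxylated S-adenosylmethionine, which Amd1 makes. High polyamine levels make ribosomes shift frame on the antizyme messages Oaz1 and Oaz2, and the full antizyme then binds ornithine decarboxylase and sends it to the proteasome. Azin1, an inactive relative of the enzyme, binds antizyme in its place. Sat1 acetylates spermidine and spermine, and Smox oxidises spermine back to spermidine.

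The frameshift site is printed because the annotated antizyme transcripts differ there, and estimated transcript shares depend on the annotated models. The lines give the site and its surroundings, 5′ to 3′ on the transcript strand, from the GENCODE M21 transcripts on mm10. Capitals mark the last codon of the first reading frame and the stop codon that follows it, as far as each model keeps them.
Oaz1-205, chr10:80828274-80828315: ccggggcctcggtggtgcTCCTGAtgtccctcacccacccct
Oaz1-207, same window: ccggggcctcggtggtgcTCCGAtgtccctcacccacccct
Oaz1-201, same window: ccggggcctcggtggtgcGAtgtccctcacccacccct
Oaz1-ps-201, chr17:17345916-17345957: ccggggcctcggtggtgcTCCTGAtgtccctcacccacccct
Oaz2-203, chr9:65686251-65686292: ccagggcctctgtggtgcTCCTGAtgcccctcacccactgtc
Oaz2-206, same window: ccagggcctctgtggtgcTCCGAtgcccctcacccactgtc
Oaz2-201, same window: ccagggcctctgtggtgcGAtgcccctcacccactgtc
Oaz1-205 and Oaz2-203 hold the site as the genome reads. Oaz1-207 and Oaz2-206 leave out 1 base, the first of the stop codon, so that the annotated protein continues in the shifted frame. Oaz1-201 and Oaz2-201 leave out 4 bases. The contiguous Oaz1 message and the copy Oaz1-ps are identical over this window, whereas the main full-length coding models of both antizymes are not identical to it.

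Odc1 stood at 2805, 2403 and 2825 TPM in libraries 1, 2 and 3, where TPM is a length-normalised share of transcripts. Its mean of 2677 ± 238 TPM (SD, n = 3) placed it at rank 23 of 21951 protein-coding genes, and its rank within single libraries was 23, 25 and 23. The gene (ENSMUSG00000011179.8) lies at chr12:17544794-17551505 on the plus strand of mm10. The protein-coding genes nearest to it in level were Fth1, the ferritin heavy chain, at 2936 ± 87.7 TPM and the chemokine Ccl5 at 2974 ± 319 TPM above. Below it were Rps27rt at 2556 ± 402 TPM and the NF-kappaB inhibitor Tnfaip3 at 2550 ± 102 TPM. These neighbours lay within 296 TPM of Odc1, and likeness here means only a small difference in mean TPM over 3 libraries of 1 cell type. A bulk level of this kind cannot tell more expressing cells from more RNA per cell.

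The other synthesis enzymes were far lower. Amd1 (ENSMUSG00000075232.5, chr10:40287458-40302186, minus strand) measured 143, 130 and 141 TPM, a mean of 138 ± 7.10. Sms (ENSMUSG00000071708.11, chrX:157443855-157492287, minus strand) measured 78.6, 74.2 and 81.0 TPM, a mean of 77.9 ± 3.45. Srm (ENSMUSG00000006442.10, chr4:148591503-148594993, plus strand) was the lowest of the 9 genes by gene totals, at 22.4, 30.7 and 26.3 TPM. Its mean was 26.4 ± 4.15. The first enzyme of the pathway was thus 104 ± 23.7 times the level of spermidine synthase and 19.4 ± 0.794 times that of Amd1. The level of spermine synthase was 3.01 ± 0.551 times that of spermidine synthase, and the order held in all 3 libraries.

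Among the control genes, Oaz1 (ENSMUSG00000035242.15, chr10:80826656-80829290, plus strand) stood close to its target, at 1794, 2110 and 1869 TPM and a mean of 1924 ± 165, rank 43 among protein-coding genes. Oaz2 (ENSMUSG00000040652.16, chr9:65668001-65690300, plus strand) measured 46.1, 58.8 and 54.9 TPM, a mean of 53.2 ± 6.49. Oaz1 was 36.3 ± 2.45 times the level of Oaz2, and the translated coding sequences of the pair were identical at 55.3% of 188 aligned residues. The antizyme inhibitor Azin1 (ENSMUSG00000037458.15, chr15:38487427-38519266, minus strand) measured 146, 109 and 146 TPM, a mean of 134 ± 21.1. Its translated coding sequence was identical to that of Odc1 at 50.9% of 446 aligned residues, but Odc1 RNA was 20.2 ± 1.55 times as abundant and Oaz1 RNA 14.8 ± 3.90 times as abundant. Library 2 gave the lowest Azin1 level and the highest Oaz1 level.

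Of the turnover genes, Sat1 (ENSMUSG00000025283.15, chrX:155213132-155216449, minus strand) measured 229, 255 and 236 TPM, a mean of 240 ± 13.5. Smox (ENSMUSG00000027333.18, chr2:131491496-131525922, plus strand) measured 131, 136 and 145 TPM, a mean of 138 ± 6.99. The acetylase was higher than the oxidase in every library, by a ratio of 1.75 ± 0.121. Both lay above the synthases Sms and Srm in every library.

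**Figure D1:**
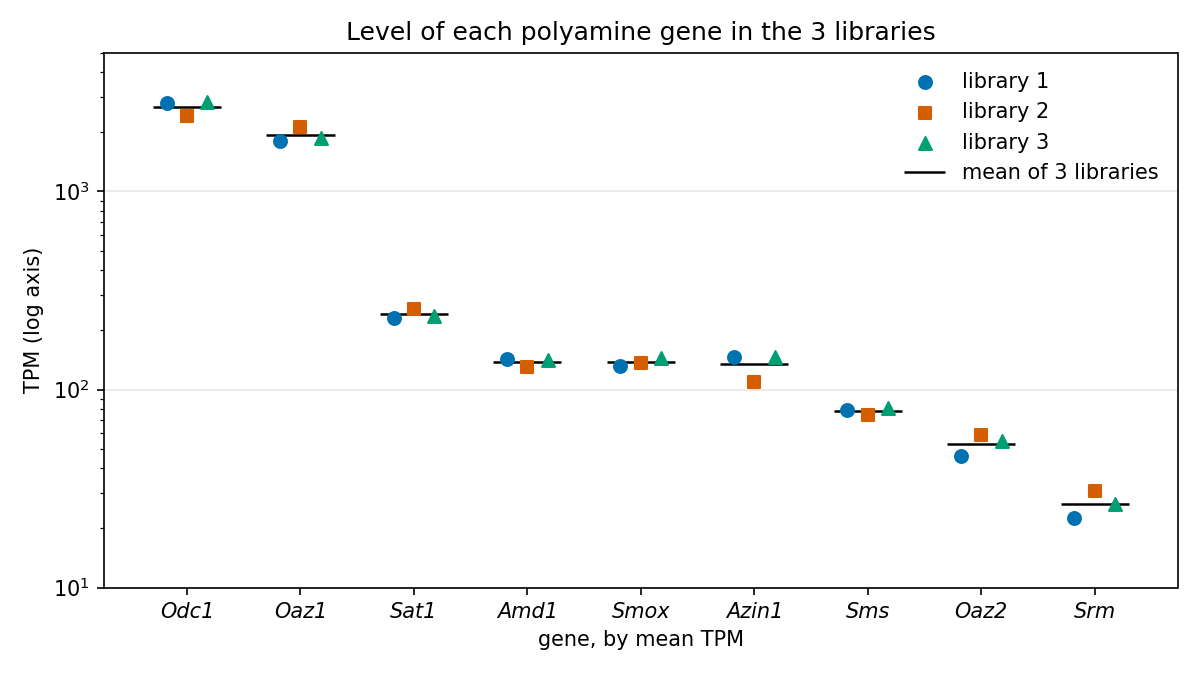
TPM on a log axis for each gene in libraries 1, 2 and 3 (points) with the mean (bar). Odc1 and Oaz1 lie near 2677 and 1924 TPM, Sat1 at 240 TPM, and Amd1, Smox and Azin1 overlap between 109 and 146 TPM.

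In order of mean TPM, the genes ran Odc1, Oaz1, Sat1, Amd1, Smox, Azin1, Sms, Oaz2 and Srm, with a 101-fold span. The ranges of Amd1, Smox and Azin1 over libraries overlapped, so their order is not settled by these data. The other neighbours in the order did not overlap. All 9 genes had a mean of 10 TPM or more and 6 had 100 or more. Of all 21951 protein-coding genes, 47.9% reached 1 TPM, 7540 reached 10 TPM and 7.84% reached 100. The median of the 9 genes was 139 ± 8.28 TPM, beside a median of 0.713 TPM over all protein-coding genes and 25.5 TPM over those at 1 TPM or more.

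Odc1 and Oaz1 together took 85.2%, 85.0% and 85.0% of the summed TPM of the 9 genes, a mean of 85.1% ± 0.144. Within that sum the balance moved between libraries. Odc1 took 52.0%, 45.3% and 51.1% (49.5% ± 3.65), and the ratio of Odc1 to Oaz1 was 1.56, 1.14 and 1.51 (1.40 ± 0.232). With Oaz2 added to Oaz1 the ratio was 1.37 ± 0.226. By gene totals the RNA of the enzyme was above that of its antizymes in every library, and library 2 was nearest to parity. Over transcripts annotated as protein coding alone, the mean ratio turned. Odc1 stood at 1784 ± 177 TPM and Oaz1 at 1900 ± 166 TPM, and their ratio was 1.07, 0.757 and 1.02, a mean of 0.948 ± 0.169. That Oaz1 level includes the short models Oaz1-205 and Oaz1-204, of 538 and 520 bases, at 795 ± 65.0 and 456 ± 111 TPM. The full-length Oaz1-201 and Oaz1-207 together stood at 644 ± 23.2 TPM, below the coding Odc1-201 at 1784 TPM. The ratio rests on the scale used: it was 3.74 in CPM, that is counts scaled to library size without length correction, and 6.12 by the second deposited gene table.

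Transcripts annotated with a type other than protein coding took different shares of the 9 genes. Here noncoding means any GENCODE transcript whose type is not protein coding. That includes those marked for nonsense-mediated decay, the pathway that destroys messages with an early stop. Short models annotated as protein coding count as coding, whether or not they hold the full coding sequence. A low noncoding share therefore does not mean that full-length models dominate. The full-length coding models of Oaz1 together held 33.7% ± 3.43 of its TPM. The noncoding share of TPM was 76.3% ± 4.06 for Sms, 50.9% ± 2.41 for Azin1, 43.7% ± 1.62 for Smox, 36.7% ± 0.688 for Sat1 and 33.4% ± 1.11 for Odc1. It was 15.1% ± 2.16 for Amd1, 13.0% ± 5.14 for Oaz2, 7.01% ± 2.97 for Srm and 1.25% ± 0.242 for Oaz1, where posterior mean TPM gave Srm 14.3% ± 2.21. Over 6455 protein-coding genes at 10 TPM or more with such a transcript, the median was 21.8% and the interquartile range 7.74% to 43.6%. With estimated counts in place of TPM the share of Oaz1 rose to 4.55% ± 0.753, and those of the other 8 genes fell. It fell to 58.2% ± 4.27 for Sms, 39.7% ± 4.22 for Azin1, 34.01% ± 3.37 for Smox, 32.7% ± 0.572 for Sat1 and 20.96% ± 0.496 for Odc1.

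**Figure D2:**
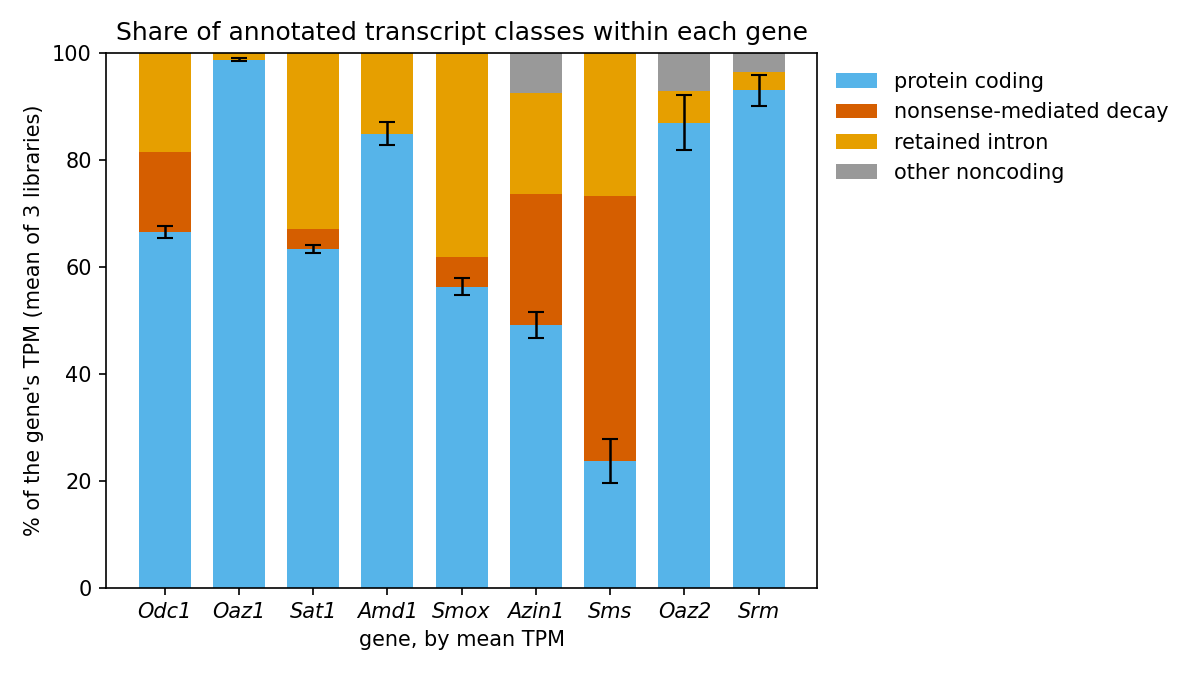
Percent of each gene's TPM by annotated transcript class (stacked bars, mean of 3 libraries), with error bars of 1 SD on the coding share. Sms has the smallest coding bar, with 76.3% noncoding, and Oaz1 the largest, with 1.25% noncoding.

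The following lines show where 4 of these transcripts leave the coding model and reach their annotated early stop, in capitals. Each begins with 15 bases that the coding transcript shares, and each runs 5′ to 3′ on the transcript strand.
Odc1-205, chr12:17548612-17549423: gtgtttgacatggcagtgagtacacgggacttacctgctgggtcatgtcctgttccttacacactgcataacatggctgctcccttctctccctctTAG
Azin1-205, chr15:38497535-38498683: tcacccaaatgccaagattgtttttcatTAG
Sms-204, chrX:157454887-157460341: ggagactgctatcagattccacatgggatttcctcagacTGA
Sat1-207, chrX:155215217-155215615: actggacccctgaaggttacagtctcTAG
The coordinates span the introns between the printed exons. Odc1-205 reads 84 bases that Odc1-201 lacks before its stop, Azin1-205 reads 16 and Sat1-207 reads 14. Sms-204 reads no new base: it skips the 115-base exon at chrX:157455994-157456108 and meets a stop 27 bases on in the shifted frame.

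For Odc1, the coding transcript Odc1-201 held 67.8%, 65.8% and 66.1% of TPM, a mean of 66.6% ± 1.11. The early-stop transcript Odc1-205 followed at 13.6% ± 0.171, or 365 ± 33.8 TPM, with 3 exon junctions after its stop. At that level the early-stop form of Odc1 alone was higher than any of the 7 genes below Oaz1. The retained-intron transcript Odc1-204 held 5.25% ± 1.67. A further 421 of the 505 bases that set Odc1-205 apart are a longer 3′ end at chr12:17551085-17551505. The model begins at chr12:17547689 and lacks 731 bases of Odc1-201, among them its 5′ end and the 84-base exon at chr12:17548787-17548870. How much of its share rests on these ends rather than on the early stop was not tested.

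Sms was the only one of the 9 genes whose highest transcript by TPM was marked for decay. Sms-204 held 43.4%, 56.6% and 48.9% of its TPM, a mean of 49.7% ± 6.66, and the coding Sms-201 held 21.4% ± 2.23. By estimated counts Sms-201 averaged 41.4% and Sms-204 39.0%, but Sms-201 led in library 1 alone, at 46.1% against 33.95%, and Sms-204 led in libraries 2 and 3. Sms-201 and Sms-204 are 3717 and 1540 bases long. Besides the skipped exon, Sms-204 lacks 1841 bases of the Sms-201 3′ end, at chrX:157443855-157445695, and 221 bases of its 5′ end. How much of the Sms-204 share rests on those ends rather than on the skipped exon was not tested. The retained-intron transcripts Sms-205 and Sms-203 held 18.2% ± 5.27 and 8.44% ± 0.952.

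Azin1 was spread over many models. The full coding Azin1-203 held 25.7% ± 4.74 and the short coding model Azin1-207 held 20.0% ± 3.37. The early-stop Azin1-205, whose longer exon adds the 152 bases at chr15:38497399-38497550, held 16.7%, 16.5% and 14.4%, a mean of 15.9% ± 1.32, with 6 junctions after its stop. The retained-intron Azin1-209 held 15.8% ± 1.97, the early-stop Azin1-202 held 8.65% ± 1.62, and the noncoding Azin1-208 held 7.53% ± 2.79. By estimated counts Azin1-203 led with 49.1% and Azin1-205 followed with 29.8%.

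In Sat1 the coding Sat1-201 held 63.1% ± 0.973, and the retained-intron models Sat1-205 and Sat1-204 held 14.9% ± 0.968 and 14.3% ± 2.93. Sat1-207, the transcript with an added internal exon, is known from mammals as the form that rises when polyamines are scarce. It held 3.40%, 4.14% and 3.79%, a mean of 3.78% ± 0.372, and its added exon is the 110-base segment at chrX:155215121-155215230. In Smox the coding Smox-207 held 26.9% ± 3.72, the retained-intron Smox-213 and Smox-214 held 22.0% ± 2.81 and 15.9% ± 3.96, and the early-stop Smox-215 held 5.37% ± 0.653. Amd1 and Srm were simpler, with 84.7% ± 1.97 in Amd1-201, 10.4% ± 1.63 in the retained-intron Amd1-202, 93.0% ± 2.97 in Srm-201 (85.7% by posterior mean TPM) and 3.61% ± 0.565 in Srm-202.

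The antizyme transcripts split at the models shown above. Oaz1-205, a 538-base model with the uninterrupted site, held 42.2%, 41.2% and 40.5% of Oaz1, a mean of 41.3% ± 0.879. The full-length Oaz1-207, with 1 base left out, held 33.4% ± 3.26, and by estimated counts it led with 48.8% against 29.7%. In Oaz2, the coding Oaz2-201 held 88.4%, 79.1% and 1.00%, while Oaz2-206 held 0%, 0% and 77.8%. These models differ by 3 bases at the frameshift site, and their sum was 88.4%, 79.1% and 78.8%, a mean of 82.1% ± 5.47. The deposited posterior standard deviation of the Oaz2-206 count was 209, 174 and 128 reads against counts of 0, 0.03 and 673, and posterior mean TPM gave it 33.1%, 31.4% and 57.1%. The posterior mean shares moved less than the point estimates, and only the sum of the pair is read here. The noncoding Oaz2-207 and Oaz2-205 held 6.92% ± 5.64 and 5.96% ± 1.72. Whether reads across the site were lost or moved to Oaz1-205 or Oaz1-ps was not tested.

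**Figure D3:**
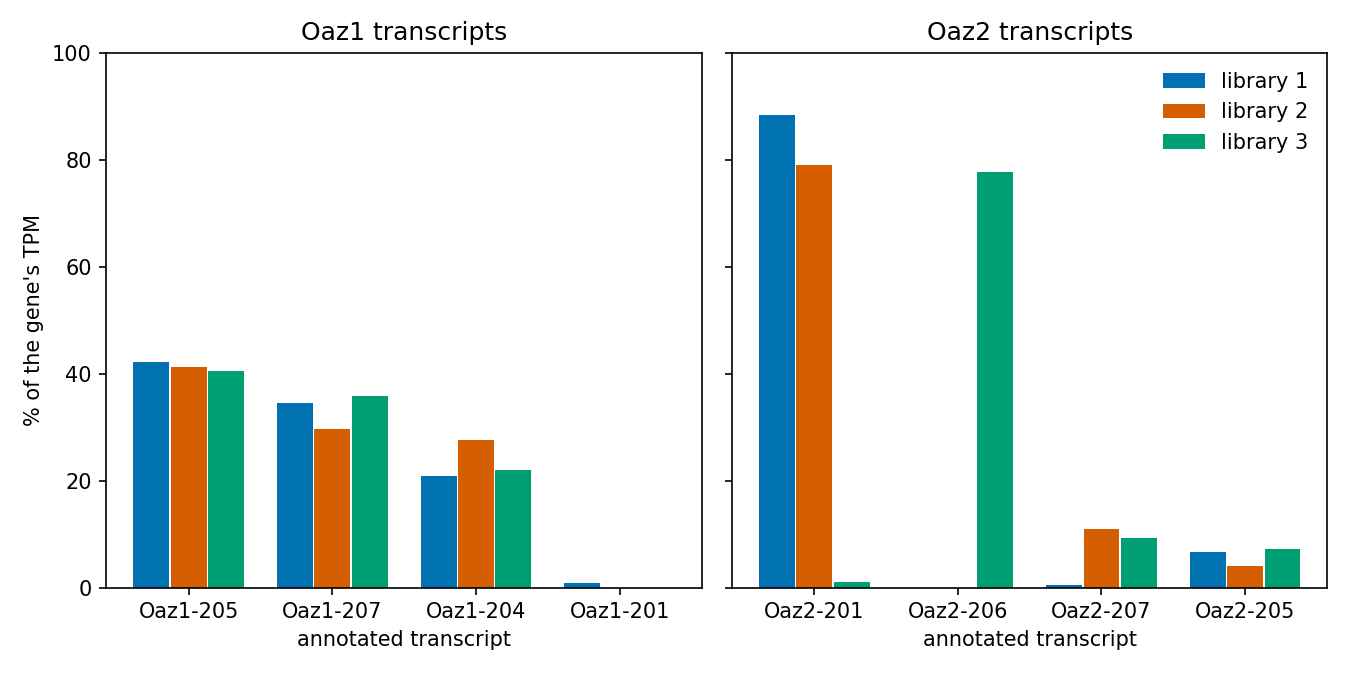
Percent of gene TPM held by 4 annotated transcripts of Oaz1 (left) and of Oaz2 (right) in each library. The 3 main Oaz1 models kept their order in every library, whereas Oaz2 passed from Oaz2-201 in libraries 1 and 2 to Oaz2-206 in library 3.

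The libraries were compared gene by gene with a chi-square test of homogeneity of the estimated counts, scaled by TMM library sizes and adjusted by Benjamini-Hochberg over all genes tested. Of the 9 genes, 7 differed between libraries by more than counting error, beside 57.2% of all 13938 genes tested. After dividing the statistic by its median inflation over all genes, 4.46% of genes were called, and Odc1 was the only one of the 9 (adjusted p = 4.5e-25). Oaz1 then had an adjusted p of 0.0832 and Srm 0.959. At a given relative spread the statistic grows with depth. The SD of TMM-scaled CPM was 9.55% of the mean for Odc1 and 14.5% for Srm. Being called therefore does not mean that Odc1 had the widest spread. In the test before that division, Smox had an adjusted p of 0.0594 and Sms 0.272. Library 2 stood apart over all genes: the mean chi-square per gene was 18.5 between libraries 1 and 2, 20.0 between 2 and 3, and 6.09 between 1 and 3. Without library 2, Odc1 and Oaz1 were the 2 of the 9 genes called, beside 27.5% of all genes tested.

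Library 2 deviated in both directions. Relative to the mean of libraries 1 and 3, in TMM-scaled CPM, Odc1 was -15.6% in library 2, Azin1 -10.9%, Amd1 -10.7% and Sms -5.81%. Smox was 3.92% above, Sat1 7.24%, Oaz1 8.92%, Oaz2 11.0% and Srm 24.7%. In TPM, Azin1 was furthest below at -25.1%, and Smox turned to -1.25%. On both scales Odc1, Azin1, Amd1 and Sms lay below and both antizymes above. Across 9078 genes with 300 or more counts the median log2 deviation of library 2 was 0.08, so a rise of that size is the background. The Spearman rho of that deviation with gene length was -0.0248 over those genes, a description across genes, which are not replicates. Odc1 counts were 51385, 38399 and 44930, a depth at which counting error is small beside the spread.

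**Figure D4:**
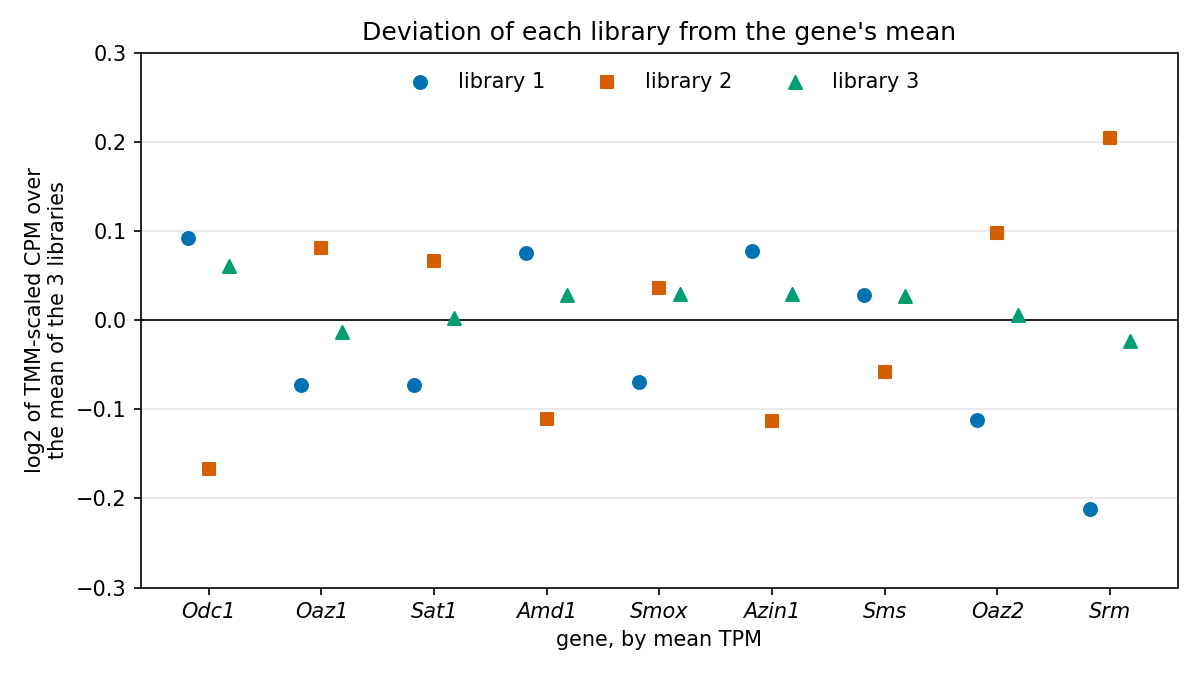
Log2 of TMM-scaled CPM over the gene's mean of 3 libraries, for each gene and library. Library 2 is lowest for Odc1, Amd1, Azin1 and Sms and highest for the other 5 genes.

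The second deposited gene table, made from a separate alignment with GENCODE M4, gave a different picture for some of the 9 genes. It held 32.1% ± 0.524 as many counts as the first table in total, and a median of 51.0% over 8581 genes with 300 or more counts. Odc1 had 1328, 1227 and 1288 counts there, which is 2.88% ± 0.306 of its estimated count, beside a median of 10.8% over 194 genes with 30000 or more. Oaz1 kept 1.75% ± 0.0753, Sms 2.07% ± 0.221 and Amd1 0.758% ± 0.268. Oaz2 kept 16.4% ± 1.26, Sat1 24.2% ± 0.232, Azin1 36.9% ± 0.945, Smox 68.1% ± 0.686 and Srm 69.9% ± 2.99. The order of the genes changed with the table: Smox was highest there at 279 ± 11.9 CPM, and Odc1 followed at 265 ± 14.0 CPM, rank 901 among protein-coding genes of that table. The library test on those counts called Azin1 and Srm of the 9 genes, beside 27.2% of all genes tested there.

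The genes that lost most also share most sequence with other annotated genes. Of all windows of 50 bases in the main coding transcript, another gene's transcript held 87.6% for Amd1, 53.9% for Oaz1, 42.2% for Odc1 and 28.7% for Sms. The share was 12.0% for Oaz2, 7.28% for Sat1, 2.40% for Srm, and 0% for Azin1 and Smox. The copy of Amd1 is Amd2, identical at 99.7% of 3198 aligned bases, and that of Oaz1 is Oaz1-ps, identical at 99.9% of 684. Sms-ps was identical to Sms over all of its 1101 bases. Odc1 shared windows with 15 other genes. The treatment of reads that match several genes in the second table is not given in the sources used here, and the part of shared sequence in these losses was not tested.

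**Figure D5:**
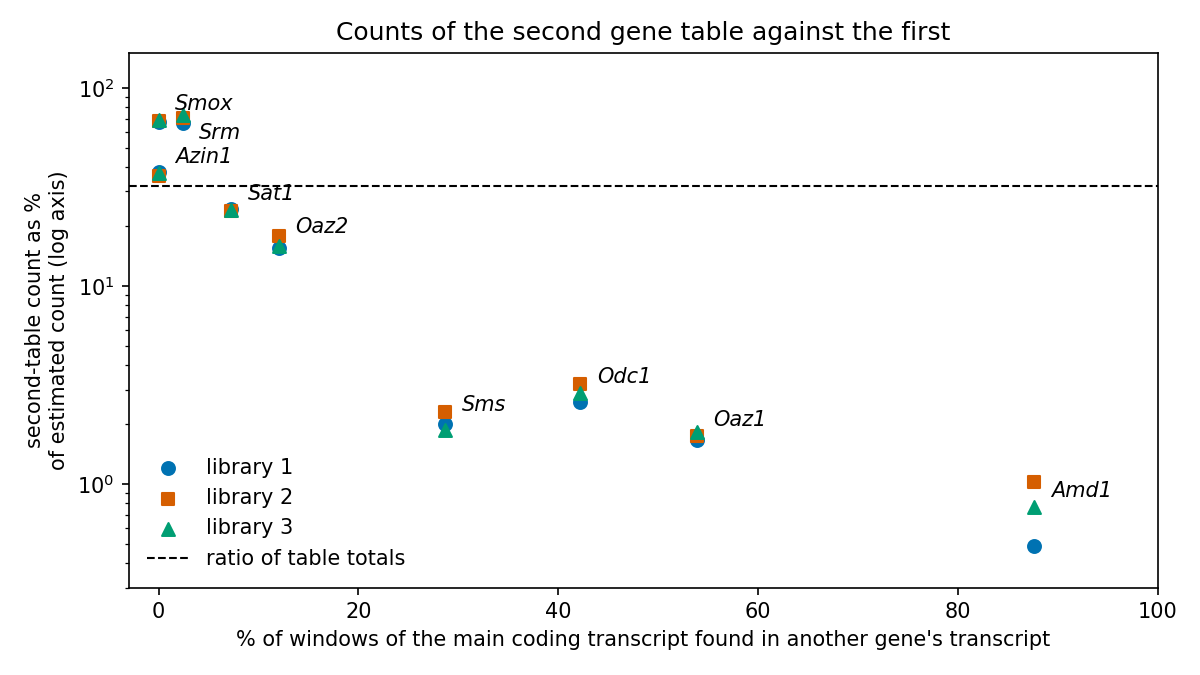
Count in the second gene table as percent of the estimated count (log axis) against the percent of 50-base windows of the main coding transcript that another gene's transcript also holds, for each gene and library. Sms, Odc1, Oaz1 and Amd1 lie below 4%, and Azin1, Smox and Srm above the dashed line, the 32.1% ratio of table totals.

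In the first table the annotated copies Amd2, Oaz1-ps and Sms-ps held smaller parts than their members. Amd2 took 2.30% ± 0.0887 of the summed TPM of Amd1 and Amd2, and Oaz1-ps took 3.97% ± 1.11 of that of Oaz1 and Oaz1-ps, at 80.3 ± 27.6 TPM. Sms-ps took more, 32.3% ± 1.80, at 37.2 ± 2.67 TPM. The deposited posterior standard deviation was at most 0.749% of the count for Amd1, 1.00% for Oaz1 and 1.98% for Sms. For the copies it reached 27.6% for Amd2, 33.2% for Oaz1-ps and 7.61% for Sms-ps. The levels of these 3 genes and of their copies depend on how reads were divided between them. For Odc1 it was at most 0.0263%, but the levels of the genes that share windows with Odc1 were not examined. Among genes that overlap the members, the small nucleolar RNA Gm22748 lies within Odc1 on the same strand and was listed at 131 ± 26.9 TPM from 318 counts, a small number beside those of its host.

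The neighbouring pathways were described by 34 listed genes, all matched, of which 26 reached 1 TPM and 20 reached 10 TPM. Of the 28 that could be tested, 20 differed between libraries and 6 did so after division by the inflation, beside 57.2% and 4.46% of all genes. The 6 were Oaz1-ps, Mat2a, Mat2b, Eif5a, Atp13a3 and Myc. The count of Oaz1-ps had a posterior standard deviation of up to 33.2%, which the test does not take into account. Among the genes of hypusination, which puts a spermidine-derived group on a translation factor, the factor Eif5a stood at 881 ± 58.3 TPM, and the enzymes Dhps and Dohh at 74.6 ± 9.77 and 37.9 ± 3.67 TPM. Among precursor genes, the S-adenosylmethionine synthase subunits Mat2a and Mat2b stood at 458 ± 21.1 and 161 ± 24.2 TPM, and Oat, which links ornithine to glutamate metabolism, at 147 ± 3.22 TPM. Aldh18a1, which makes the precursor of proline and ornithine, stood at 36.5 ± 1.09 TPM. The transporter genes Slc3a2 and Slc7a1, the latter an arginine carrier, stood at 409 ± 11.0 and 45.5 ± 5.43 TPM.

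The arginases, which release ornithine from arginine, were near the floor, with Arg1 at 0.393 ± 0.0981 TPM from 10 counts and Arg2 at 0.197 ± 0.274 TPM from 8 counts in all 3 libraries. Of the salvage genes for the by-product methylthioadenosine, all 5 reached 1 TPM, led by Mri1 at 102 ± 10.8 TPM. Mtap, which starts that salvage, stood at 56.5 ± 4.24 TPM, Adi1 at 34.4 ± 1.59 and Enoph1 at 15.4 ± 1.98. The polyamine transporter genes Atp13a3 and Atp13a2 stood at 42.1 ± 6.94 and 21.4 ± 2.84 TPM. Among paralogs of the 9 genes, Oaz3 stood at 1.37 ± 0.704, Azin2 at 0.820 ± 0.747, Paox at 1.72 ± 0.996 and Sat2 at 0.210 ± 0.246 TPM, all under 2 TPM. The antizyme and inhibitor paralogs were thus small beside Oaz1, Oaz2 and Azin1.

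Myc, a transcription factor for which Odc1 is a known target in mice, stood at 116, 164 and 129 TPM, a mean of 136 ± 25.02. Library 2 had the highest Myc level and the lowest Odc1 level. Max, its partner, and Mxi1, an antagonist, stood at 83.5 ± 6.39 and 92.1 ± 6.54 TPM, and no list gene was at 0 counts in all libraries.

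The markers measured matched the CD4 T cell part of the label, and the effector memory part was not tested. Estimated gene counts summed to between 14146504 and 16244840. Cd4, Cd3e, Trac and Cd44 stood at 476, 679, 3271 and 131 TPM. Of the markers of other cell types, Cd8a, Cd79a, Lyz2, Csf1r and S100a8 had means under 1 TPM, Cd8b1 stood at 4.16 and the erythroid Hbb-bs at 3.90 TPM. The proliferation genes Mki67 and Top2a stood at 0.900 and 5.69 TPM.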

How the data were processed

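PolyA RNA-seq was made from 3 technical libraries of 1 mouse sample, with RNA sheared to 100 to 300 bases, per the labels. The authors deposited gene and transcript tables on mm10 with GENCODE M21, which per the file headers hold expected counts (estimated counts that divide ambiguous reads), TPM, FPKM, transcript percent and the posterior standard deviation of each count, used here as a score of uncertainty. A second deposited gene table holds whole-number counts with GENCODE M4. Aligner, quantifier, kit and strand setting: not given in the sources used here, so antisense reads cannot be told apart. Gene counts summed to 16244840, 14872711 and 14146504, and to 5110680, 4812984 and 4579836 in the second table. Rows naming no mouse gene (0.230%, 0.619% and 0.282% of counts) were left out.

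Levels are deposited TPM. Expected counts were rounded and tested by chi-square over libraries, using TMM sizes from edgeR 4.0.16. Genes needed 30 counts over the libraries, and p-values were adjusted by Benjamini-Hochberg, with a threshold of 0.05. The test was checked on simulated counts that vary by counting error alone. It called 0.0892% of unchanged genes, 26.0% of genes raised 1.2-fold in library 2 and 96.0% of genes raised 3-fold there. The median inflation of the real counts was 6.45, so the check does not cover the spread seen here. The p-values test for technical spread beyond counting error within 1 mouse. They depend on depth and do not measure the size of that spread. All pairs of libraries differed beyond counting error, so each was kept as a library. Alternatives were DESeq2 1.42.0 size factors, total counts, other count filters, units and pseudocounts, the second table and leaving out each library. The ratio over coding transcripts, the coding comparison of Sms with Srm and the rank in the second table were added after seeing the data. Sequences were read from the GENCODE M21 transcripts and aligned with Biopython 1.88. The members and lists were chosen with earlier results of these data known. The rule names the 9 members, list genes at 10 TPM or more or at 0 counts, the 2 highest transcripts of each member, noncoding transcripts at 5% or more and the 4 genes next to Odc1 in level. Named outside it, after their values were seen, were Sat1-207, Oaz1-201, Oaz2-203, Amd2, Arg1, Arg2, Oaz3, Azin2, Paox, Sat2, Gm22748 and the cell type markers. Python 3.11.15, numpy 2.4.6, scipy 1.17.1, pandas 2.3.3, matplotlib 3.10.9 and R 4.3.3 were used.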

Additional observations from a re-analysis of the deposited data

How the results depend on the processing

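The ratio of Odc1 to Oaz1 rose from 1.40 to 3.74 in CPM and to 6.12 in the second gene table. It turned to 0.948 over protein-coding transcripts alone, a setting chosen after seeing the data that counts short Oaz1 models as coding. The cause of these shifts was not tested. The Odc1 share of the 9 genes went from 49.5% to 64.1% and 26.9%, and its rank from 23 to 16 in CPM and to 901 in the second table, a rank computed after seeing the data. The number of genes called different between libraries fell from 7971 to 2804 in the second table and to 622 after division by the inflation. The members called fell from 7 to 2 and to 1. Leaving out 1 library at a time gave 3546 to 5484 genes and 2 to 8 members. Leaving out library 2 gave the lowest of both. Of 136 recomputed values, 101 stayed within the spread or 1.5 times of the reported count, 34 moved and 1 turned. Leaving out 1 library cannot move a mean beyond the SD over 3 libraries. For means, staying within the spread in those settings therefore shows no stability. Transcript shares moved mainly between TPM and estimated counts. The Srm noncoding share also moved under posterior mean TPM, from 7.01% to 14.3%. No paired analysis was possible because there is 1 group. Depth limits Srm and Oaz2 most, at 279 to 333 and 752 to 803 counts, and an SD over technical libraries says nothing of other mice.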
